A study of Mus musculus with 8 samples.

Results

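Protein kinase A, the main effector of cyclic AMP (cAMP), is described here through 10 genes for its regulatory subunits, catalytic subunits, inhibitors and anchors in activated mouse CD4 T cells. The genes are Prkar1a, Prkar2a, Prkaca, Prkacb, Pkia, Pkig, Akap1, Akap8, Akap9 and Akap13, and every probe set annotated to 1 of these symbols alone was read. They are 10 of the 18193 genes named on the array and have 33 probe sets, between 2 and 7 each. The main probe set of a gene is the one that is brightest on average over the 8 arrays.

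Splenic CD4 T cells of 8-week-old mice were activated through CD3 and CD28 for 15 h, and db-cAMP (dibutyryl cAMP, a cell-permeable cAMP analogue) or vehicle was present during the last 3 h. The 4 groups were cells deficient in IFN-γ receptor 1 (KO) with db-cAMP, KO cells with vehicle, wild-type (WT) cells with db-cAMP and WT cells with vehicle, with 2 arrays each. The IFN-gR1 deficiency was that of the mice the cells were taken from, and all 4 groups had received the CD3 and CD28 stimulus. Strain, sex and the kind of mutant allele are not stated. The 4 arrays taken as KO are so called in their titles, source names and genotype entries, although a description field names the cells as WT. The labels call the arrays biological replicates without saying whether separate mice were used, so the p-values rest on the spread between these arrays alone.

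At rest, protein kinase A is a complex in which a pair of regulatory subunits holds a pair of catalytic subunits inactive, and cAMP bound to the regulatory subunits releases the catalytic ones. PKI proteins bind free catalytic subunits as pseudosubstrates, and A-kinase anchoring proteins (AKAPs) tether the regulatory subunits to particular places in the cell. In T cells the kinase with the type I regulatory subunit is known as a brake on signalling from the antigen receptor, in part through phosphorylation of the kinase Csk.

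The phosphorylated factor CREB binds the cAMP response element, TGACGTCA, whose shorter forms are TGACG and, on the other strand, CGTCA. The 250 bases before each annotated start in RefSeq (GRCm38.p6) were searched on both strands. There were 21 such windows for 9 of the 10 genes, and none for Pkia. The windows below belong to the subunit genes that rose with db-cAMP in WT cells, and each holds a match. Not all such windows are printed. Prkar1a has others with a match, among them chr11:109649113-109649362, where CGTCA begins 151 bases before the start. Both genes also have windows without any match. Those shown are written 5′ to 3′ with each match in capitals.

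Prkar1a, chr11:109650699-109650948, plus strand: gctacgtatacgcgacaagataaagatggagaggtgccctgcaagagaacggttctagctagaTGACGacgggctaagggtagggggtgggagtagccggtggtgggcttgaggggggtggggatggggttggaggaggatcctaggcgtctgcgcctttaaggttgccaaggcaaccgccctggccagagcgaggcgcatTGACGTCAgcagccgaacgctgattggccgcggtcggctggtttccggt
Prkaca, chr8:83972728-83972977, plus strand: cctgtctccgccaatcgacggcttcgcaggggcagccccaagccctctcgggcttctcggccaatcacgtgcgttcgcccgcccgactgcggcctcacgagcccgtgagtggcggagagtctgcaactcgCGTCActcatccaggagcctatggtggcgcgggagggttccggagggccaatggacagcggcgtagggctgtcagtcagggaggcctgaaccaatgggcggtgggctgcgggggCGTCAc

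The Prkar1a window held the full element, which began 49 bases before the start at position 109650949. It was the single full match among the 21 windows, beside 508 of 32851 windows in all (1.55%). The Prkaca window held CGTCA alone, beginning 120 and 6 bases before the start. TGACG or CGTCA, counting those inside a full element, occurred in 6 of the 21 windows, beside 17.8% of all windows. Windows of a gene can overlap, and the first TGACG shown for Prkar1a also lies in another of its windows. By gene, 4 of 9 had a match, Prkar1a, Prkaca, Prkacb and Pkig, beside 19.8% of all genes. A gene was counted if any of its windows matched. The 9 genes have 21 windows, beside 32851 windows for 27025 genes in all. With more windows per gene, their share by gene cannot be set directly against that of all genes. Prkar2a, Akap1, Akap8, Akap9 and Akap13 had neither form in their windows. These are letter matches and do not show binding.

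The signals are linear MAS5 intensities scaled to a common mean per array, and array medians ran from 56.2 to 70.5. Replicate arrays correlated at 0.961 to 0.977 across genes. All 7 measured markers on the CD4 T cell list were above the array median on every array. Apart from Cd4, these are genes of T cells in general and do not set CD4 apart from CD8 T cells. Cd4 itself read 252.9 to 539.1, and Cd8b1 read 139.5 to 366.6. Of 22 markers of other blood cells 5 were above the median on every array, Cd8a, Cd8b1, Ms4a1, Lyz2 and Itga2b. A further 10 were above it on some arrays and 7 on none, among the latter Cd79a, Ncr1 and Cd14. The summed signal of the CD8 markers Cd8a and Cd8b1 was 270 to 335 on KO arrays, against 367 to 516 on WT arrays, and that of 4 B cell markers 305 to 366 on KO arrays, against 464 to 639 on WT arrays. The mean over the spiked poly-A control probe sets was 4159 to 5834 on KO arrays, against 1441 to 2148 on WT arrays. That over the hybridisation controls was 14330 to 15860 on KO arrays, against 18080 to 27170 on WT arrays. With db-cAMP against vehicle, the poly-A means were 4872 and 5834 against 4159 and 4645 in KO cells, and 1779 and 2148 against 1441 and 1636 in WT cells. The 18S rRNA signals were likewise 31400 and 38700 against 24550 and 26850 in KO cells, and 36890 and 37630 against 25510 and 28570 in WT cells. The ratios of 3-prime to 5-prime signal, a sign of RNA quality, also split the genotypes: Gapdh 0.779 to 0.85 on KO arrays against 0.734 to 0.769 on WT arrays, Actb 1.34 to 1.44 against 1.46 to 1.72, and 18S rRNA 0.513 to 0.623 against 0.353 to 0.441. The 18S ratio was 0.548 and 0.623 with db-cAMP against 0.513 and 0.522 with vehicle in KO cells, and 0.41 and 0.441 against 0.353 and 0.386 in WT cells. In each of these contrasts the control signals did not overlap between the groups compared below, and their part in the results was not tested. The targeted gene, Ifngr1, read 1056 and 1272 in KO cells with db-cAMP, 439.2 and 377.7 in KO cells with vehicle, 7319 and 8201 in WT cells with db-cAMP and 905.2 and 873.5 in WT cells with vehicle. Whether this probe set lies in sequence removed by the mutation is unknown, and the signal therefore checks nothing about the genotype.

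In WT cells db-cAMP raised a regulatory and a catalytic subunit gene and lowered another regulatory subunit gene and a pair of anchor genes. Prkar1a rose 1.38-fold and Prkaca 1.51-fold with db-cAMP. Prkar2a, Akap1 and Akap8 fell 1.56-fold, 1.99-fold and 1.52-fold. Of the 9 genes tested, 2 rose, 3 fell and 4 did not pass the threshold of an adjusted p under 0.05. Among all 12091 genes tested 16.4% were higher and 18.6% were lower in this comparison, so calls were frequent in general. The median log2 change was 0.15 for the 9 genes and 0.01 for all genes. Bulk RNA of this kind cannot tell fewer cells of a type apart from less RNA per cell.

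In KO cells 1 of the 9 genes rose, Akap13, which encodes an anchor that is also an activator of the GTPase RhoA, and none fell. The share of all genes called was 4.7% higher and 3.68% lower. At an unadjusted p under 0.05 limma gave 3 higher, with Prkar1a and Prkaca beside Akap13, and 1 lower, Akap8. The median log2 change was 0.07 for the 9 genes, against -0.0036 for all genes. The difference between the effects in KO and WT cells was tested as an interaction, KO effect minus WT effect, and 1 gene passed, Prkar1a, in the negative direction. In that test 6.7% of all genes were higher and 5.09% lower. At an unadjusted p under 0.05 limma gave 2 higher, Prkar2a and Akap8, and 1 lower.

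Between genotypes under vehicle 1 of the 9 genes was higher in KO cells, Prkacb, and none was lower, while 5.06% of all genes were higher and 5.78% were lower. At an unadjusted p under 0.05 limma gave 3 higher, with Prkar1a and Prkaca beside Prkacb, and 1 lower, Pkig. Under db-cAMP Prkar2a, Prkacb and Akap13 were higher in KO cells and Pkig was lower, with 15.9% of all genes higher and 13.3% lower. The 2 db-cAMP comparisons share no arrays with each other, but each genotype comparison shares arrays with both. Scaling the arrays to an equal 75th percentile moved the median of all genes under db-cAMP to -0.12, beside -0.0046 as deposited, and quantile normalization moved it to -0.021.

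**Figure D1:**
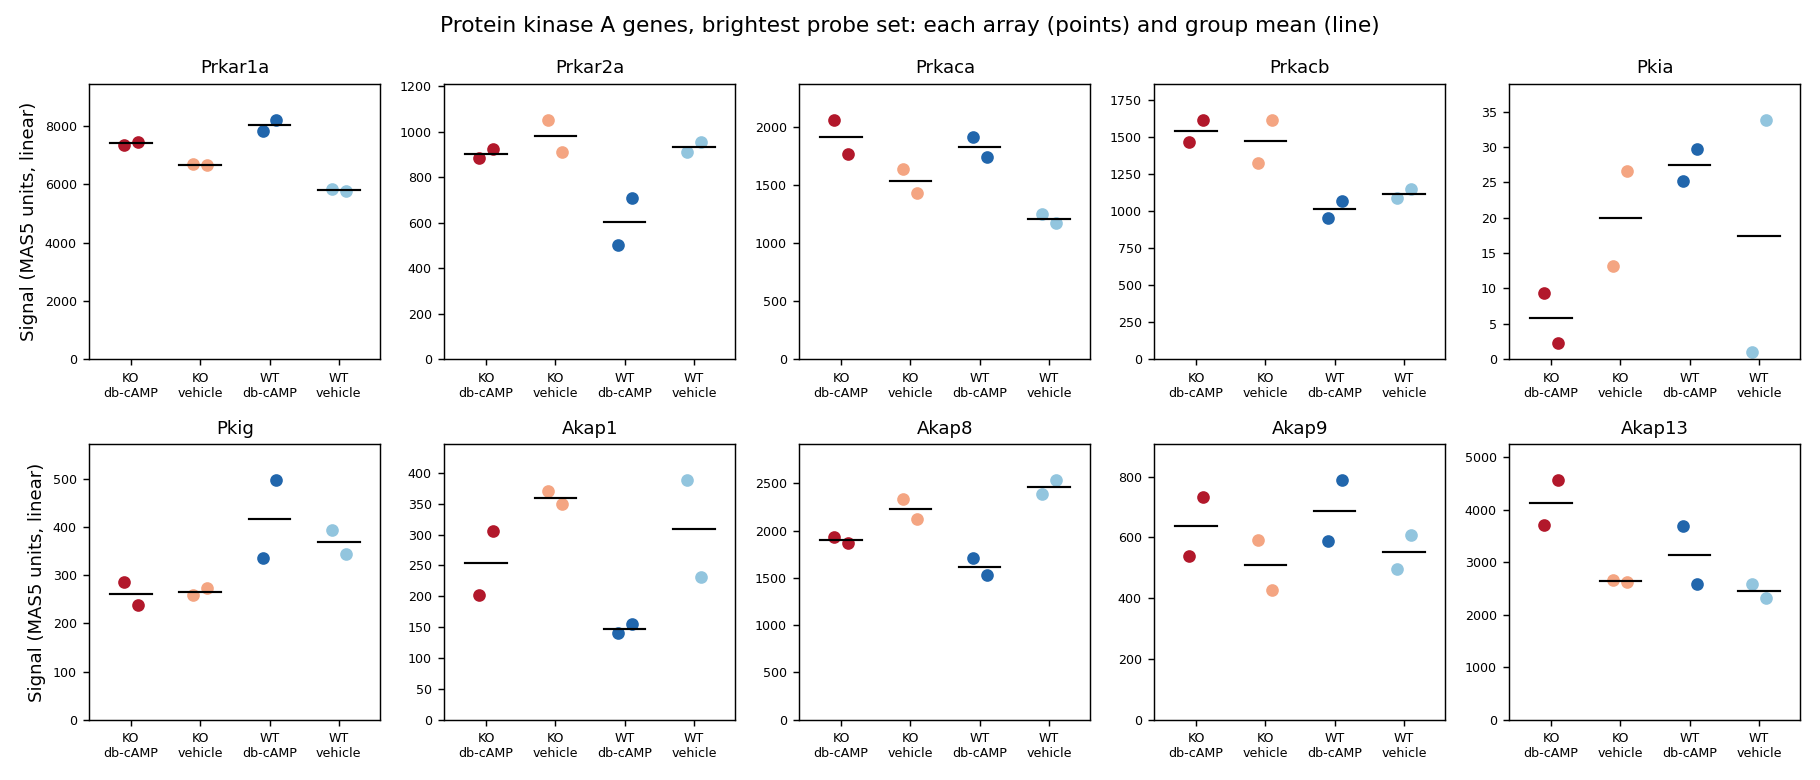
Signal of the main probe set of the 10 genes on each array (points) and the mean of each group (line), in linear MAS5 units with axes starting at 0. The columns in each panel are KO with db-cAMP, KO with vehicle, WT with db-cAMP and WT with vehicle. Within each genotype the db-cAMP arrays lie above the vehicle arrays for Prkar1a, Prkaca and Akap13, and below them for Akap1 and Akap8. In KO cells only the Akap13 change passed. The share of all genes that separate in this way was not counted. Pkia reaches at most 33.88.

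Other probe sets of the same genes bear on these values, because a probe set reads 1 stretch of a transcript and the genes' transcripts can differ in their ends. Of the 33 probe sets 26 passed the filter on dim values when every probe set on the array was fitted. In WT cells 6 of these were higher with db-cAMP and 5 lower, beside 12.6% and 13.4% of all probe sets. They lay in 4 genes that were higher, Prkar1a, Prkaca, Akap9 and Akap13, and 3 that were lower, Prkar2a, Akap1 and Akap8. In KO cells 3 were higher, all of Akap13, and 0 lower, beside 2.92% and 1.87%. Between genotypes 3 were higher and 0 lower in KO cells under vehicle, beside 5.64% and 4.67%, and 7 were higher and 2 lower under db-cAMP, beside 13.9% and 10.3%. In the interaction 0 were higher and 1 was lower, beside 3.76% and 3.07%. Where limma called 0, an unadjusted p under 0.05 was reached by 1 lower probe set in KO cells, 1 lower between genotypes under vehicle and 3 higher in the interaction.

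Prkar1a encodes the type I alpha regulatory subunit, RIα, which binds cAMP with high affinity and is largely soluble. Its main probe set, 1452032_at, read 7374 and 7457 in KO cells with db-cAMP, against 6703 and 6655 in KO cells with vehicle. In WT cells it read 7838 and 8232 with db-cAMP, against 5837 and 5770 with vehicle. Both genotypes were higher with db-cAMP on every array, and the vehicle arrays of WT cells were the lowest of the 8. The means were 7415 ± 58.6 and 6679 ± 33.9 in KO cells and 8035 ± 278 and 5803 ± 47 in WT cells (SD, n = 2). The log2 change was 0.15 ± 0.0663 in KO cells (standard error of the fit, adjusted p = 0.216) and 0.47 ± 0.0663 in WT cells (adjusted p = 8.31e-05).

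The KO effect on Prkar1a was smaller than the WT effect by a log2 of -0.32 ± 0.0938 (95% interval -0.521 to -0.115, adjusted p = 0.0437). This margin is thin, and the call was lost in 13 of 17 alternatives, among them 7 of the 8 that leave out 1 array, with adjusted p between 0.0368 and 0.444. The second probe set, 1425550_a_at, is annotated to transcripts of the same gene and showed the difference more widely. It read 5926 and 5987 in KO cells with db-cAMP, against 5633 and 5850 with vehicle, and 9669 and 9686 in WT cells with db-cAMP, against 6325 and 5947 with vehicle. Here the WT arrays with db-cAMP stood alone at the top and the other 3 groups lay close together. In the fit of every probe set its log2 change was 0.05 ± 0.0712 in KO cells (adjusted p = 0.808) and 0.66 ± 0.0712 in WT cells (adjusted p = 1.37e-05). The interaction at this probe set was -0.60 ± 0.101 (adjusted p = 0.00292), which held in 14 of 15 alternatives including all 8 that leave out 1 array.

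Between genotypes the Prkar1a probe sets gave these values. With db-cAMP, 1425550_a_at was lower in KO cells (log2 -0.70 ± 0.0712, adjusted p = 1.24e-05), and 1452032_at differed by -0.12 ± 0.0663 (adjusted p = 0.226), which became -0.24 (adjusted p = 0.0188) with arrays scaled to an equal 75th percentile. Under vehicle the changes were -0.10 (adjusted p = 0.505) and 0.20 (adjusted p = 0.0718), and the second of these passed after quantile normalization (0.29, adjusted p = 0.00977). A further probe set, 1447635_at, was dim, between 39.37 and 119.5. Averaging all probe sets of the gene, dim ones included, left the WT change at 0.30 (adjusted p = 0.119).

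Prkar2a encodes the type II alpha regulatory subunit, RIIα, which most AKAPs bind with high affinity. Main probe set 1452915_at read 883.4 and 924.7 in KO cells with db-cAMP, against 1054 and 910.6 with vehicle. The WT values were 502 and 706.7 with db-cAMP, against 912.9 and 953.5 with vehicle. The WT arrays with db-cAMP were the lowest of all, and the other 3 groups overlapped. The log2 change was -0.12 ± 0.149 in KO cells (adjusted p = 0.756) and -0.64 ± 0.149 in WT cells (adjusted p = 0.00401). Without replicate 1 of the WT db-cAMP arrays the WT change was -0.40 (adjusted p = 0.0453), and it missed the threshold without the intensity trend (adjusted p = 0.0515) and with averaged probe sets (-0.45, adjusted p = 0.167). The interaction did not pass (0.53 ± 0.211, 95% interval 0.0717 to 0.982, adjusted p = 0.141), and without replicates 1 and 2 of the WT arrays with db-cAMP, each left out in turn, it was 0.28 (adjusted p = 0.369) and 0.77 (adjusted p = 0.0198).

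A second Prkar2a probe set, 1428783_at, also fell in WT cells, reading 433 and 410.2 with db-cAMP, against 530.7 and 616.1 with vehicle (log2 -0.44 ± 0.128, adjusted p = 0.0228). That call was lost without replicate 2 of the WT vehicle arrays (adjusted p = 0.152) and without replicate 2 of the WT db-cAMP arrays (adjusted p = 0.0953). In KO cells it read 806.2 and 838.1 with db-cAMP, against 850.3 and 902 with vehicle. Every KO array was therefore above every WT array at this probe set. It was higher in KO cells under db-cAMP (0.95 ± 0.128, adjusted p = 0.000118) and under vehicle (0.61 ± 0.128, adjusted p = 0.00744). The value under vehicle no longer passed without replicate 2 of the KO vehicle arrays (adjusted p = 0.0627) or replicate 1 of the WT vehicle arrays (adjusted p = 0.0681). The main probe set was higher in KO cells under db-cAMP, 1.51-fold (0.60 ± 0.149, adjusted p = 0.00794), but not under vehicle (0.07 ± 0.149, adjusted p = 0.852). Without replicate 1 of the WT arrays with db-cAMP that difference was 0.35 (adjusted p = 0.0839), and without replicate 2 of the KO arrays with db-cAMP it was 0.56 (adjusted p = 0.0594). The other 2 probe sets of Prkar2a were dim, and none of their values passed 107.1.

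Prkaca encodes the catalytic subunit Cα, the most widely expressed catalytic form. By 1447720_x_at, the main probe set, it read 2061 and 1763 in KO cells with db-cAMP, against 1634 and 1433 with vehicle. In WT cells it read 1909 and 1739 with db-cAMP, against 1245 and 1173 with vehicle. In both genotypes the db-cAMP arrays lay above the vehicle arrays, and the WT vehicle arrays were the lowest. The log2 change was 0.32 ± 0.107 in KO cells (adjusted p = 0.0969) and 0.59 ± 0.107 in WT cells (adjusted p = 0.000653), and the WT call held in all 18 alternatives. The suffix of this probe set marks probes that may also match other sequences. The second one, 1450519_a_at, read 290.5 and 291.8 in KO cells with db-cAMP, against 211 and 268.3 with vehicle, and 406 and 436.4 in WT cells with db-cAMP, against 264.6 and 167.8 with vehicle. It rose in WT cells by 0.98 ± 0.227 (adjusted p = 0.00579), a call lost without replicate 2 of the WT vehicle arrays (adjusted p = 0.0592), and gave 0.29 ± 0.227 in KO cells (adjusted p = 0.628). The interaction of the main probe set was -0.27 ± 0.151 (95% interval -0.601 to 0.052, adjusted p = 0.302), so a smaller effect in KO cells was not shown. KO cells differed from WT cells by 0.06 ± 0.107 under db-cAMP (adjusted p = 0.708) and by 0.34 ± 0.107 under vehicle (adjusted p = 0.0616), where both KO arrays lay above both WT arrays.

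Prkacb encodes the catalytic subunit Cβ. Signals at its main probe set, 1420611_at, were 1463 and 1615 in KO cells with db-cAMP and 1324 and 1618 in KO cells with vehicle. It read 954.6 and 1071 in WT cells with db-cAMP and 1085 and 1150 in WT cells with vehicle. All 4 KO arrays were above all 4 WT arrays. The difference between KO and WT cells was 1.52-fold under db-cAMP (log2 0.60 ± 0.116, adjusted p = 0.00142) and 1.31-fold under vehicle (0.39 ± 0.116, adjusted p = 0.049). The value under vehicle sits at the threshold and passed in 5 of 18 alternatives, with adjusted p between 0.0277 and 0.779. Without replicate 2 of the KO vehicle arrays it was 0.24 (adjusted p = 0.335), and without either WT vehicle array or either KO db-cAMP array its adjusted p ran from 0.0694 to 0.201. No effect of db-cAMP passed, with 0.07 ± 0.116 in KO cells (95% interval -0.18 to 0.321) and -0.14 ± 0.116 in WT cells (95% interval -0.394 to 0.108). The other probe sets, 1420610_at and 1457197_at, were dim, and averaging all 3 turned both genotype differences negative, to -0.086 under db-cAMP and -0.18 under vehicle (adjusted p = 0.862 and 0.779).

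**Figure D2:**
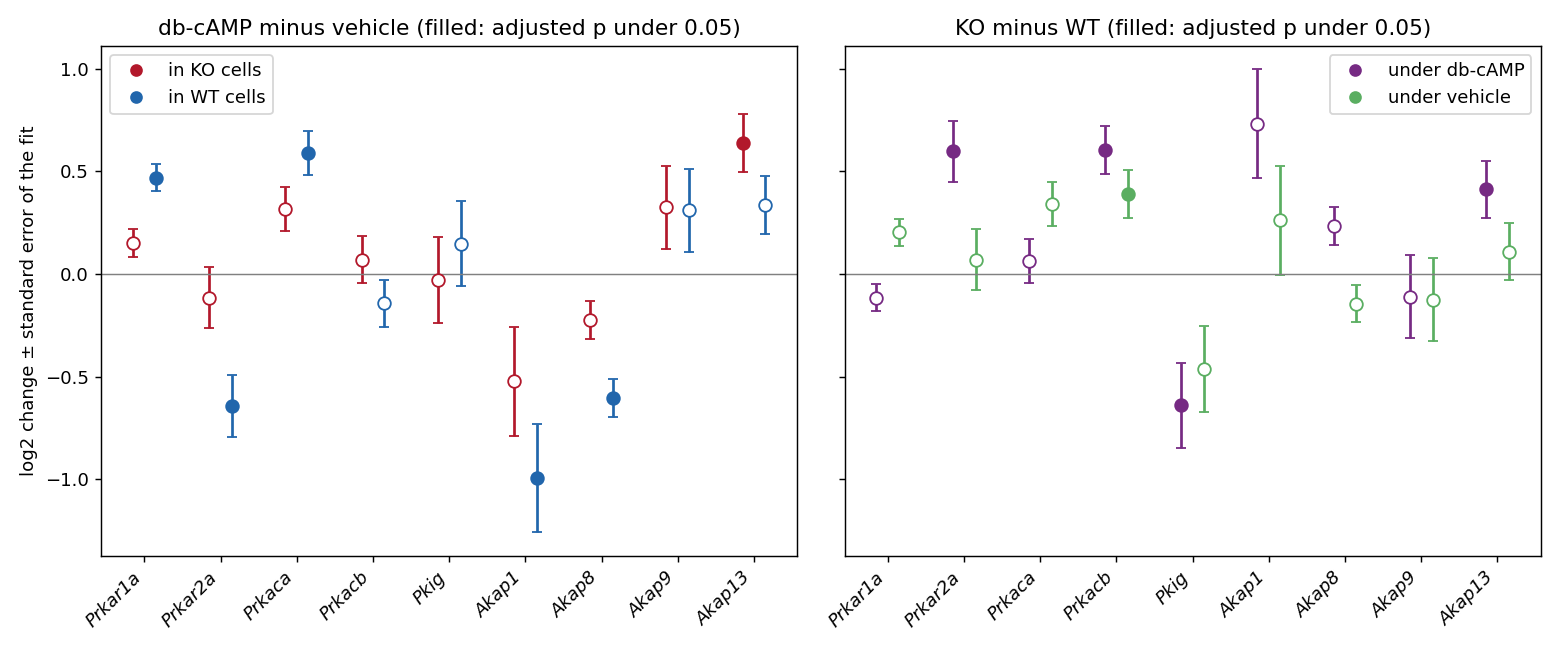
Log2 changes of the main probe sets of the 9 genes tested, with standard errors of the fit as bars and filled points where the adjusted p was under 0.05. The left panel gives db-cAMP minus vehicle in KO and in WT cells, and the right panel gives KO minus WT under db-cAMP and under vehicle. In the left panel 5 WT points and 1 KO point are filled, and in the right panel 4 points under db-cAMP and 1 under vehicle are.

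Neither inhibitor gene showed a change with db-cAMP that passed the test. Pkia, the alpha form of the protein kinase inhibitor, was below the array median on all 8 arrays and was not tested. Its main probe set, 1420858_at, read 9.314 and 2.249 in KO cells with db-cAMP, against 13.21 and 26.63 with vehicle, and 25.12 and 29.68 in WT cells with db-cAMP, against 0.9731 and 33.88 with vehicle. The WT vehicle replicates span the whole range of the 8 arrays, so no order of the groups can be read. The second Pkia probe set lay between 0.7279 and 49.22.

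Pkig, the gamma form of the inhibitor, was measured by 1434820_s_at at 285.3 and 237.6 in KO cells with db-cAMP and 257.9 and 273.7 in KO cells with vehicle. In WT cells it read 335.7 and 496.6 with db-cAMP and 394.3 and 343.6 with vehicle. All KO arrays lay below all WT arrays. The difference was -0.64 ± 0.208 under db-cAMP (1.56-fold lower in KO cells, adjusted p = 0.0341) and -0.46 ± 0.208 under vehicle (adjusted p = 0.201). The call under db-cAMP rested on single arrays, since it was -0.36 (adjusted p = 0.285) without replicate 2 of the WT arrays with db-cAMP, -0.51 (adjusted p = 0.218) without replicate 2 of the KO arrays with db-cAMP, and -0.77 (adjusted p = 0.0584) without replicate 1 of the KO arrays with db-cAMP. The suffix of this probe set marks probes shared with transcripts of other genes. The other one, 1423945_a_at, did not separate the genotypes, with 0.33 ± 0.343 under db-cAMP (adjusted p = 0.55) and -0.14 ± 0.343 under vehicle (adjusted p = 0.877). No effect of db-cAMP on Pkig passed, with intervals from -0.479 to 0.422 in KO cells and from -0.302 to 0.598 in WT cells.

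Akap1 encodes an anchor that holds the kinase at the outer mitochondrial membrane. At 1449019_at, the main probe set, it read 202.7 and 305.5 in KO cells with db-cAMP, against 370.4 and 349.4 with vehicle. The WT values were 140.3 and 155.4 with db-cAMP, against 388 and 230.6 with vehicle. In both genotypes the db-cAMP arrays lay below the vehicle arrays, and the WT vehicle pair was far apart. The fall in WT cells was -0.99 ± 0.265 on the log2 scale, or 1.99-fold (adjusted p = 0.0099), and it was -0.62 (adjusted p = 0.132) without replicate 1 of the WT vehicle arrays. In KO cells the change was -0.52 ± 0.265 (adjusted p = 0.299). The interaction was 0.47 ± 0.375 with a 95% interval of -0.34 to 1.28 (adjusted p = 0.504). Under db-cAMP KO cells differed from WT cells by 0.73 ± 0.265 (adjusted p = 0.0543). The second probe set, 1418279_a_at, gave -1.01 ± 0.439 in WT cells (adjusted p = 0.115).

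Akap8 encodes a nuclear anchor associated with chromatin and the nuclear matrix. The brighter probe set, 1450983_at, read 1933 and 1873 in KO cells with db-cAMP, against 2334 and 2119 with vehicle. The WT values were 1706 and 1534 with db-cAMP, against 2391 and 2531 with vehicle. The db-cAMP arrays lay below the vehicle arrays in both genotypes, and the WT groups lay outside the KO groups on both sides. The fall in WT cells was -0.60 ± 0.0909 (adjusted p = 0.000143) and held in all 18 alternatives. In KO cells the change was -0.22 ± 0.0909 (adjusted p = 0.171), and the interaction was 0.38 ± 0.128 (95% interval 0.101 to 0.656, adjusted p = 0.0794). The second probe set, 1433669_at, read 1303 and 1217 in KO cells with db-cAMP, against 1436 and 1409 with vehicle, and 902.2 and 980.9 in WT cells with db-cAMP, against 1381 and 1411 with vehicle. It fell in WT cells, with a log2 change of -0.57 ± 0.099 (adjusted p = 0.000778) and gave -0.17 ± 0.099 in KO cells (adjusted p = 0.436). It was higher in KO cells than in WT cells under db-cAMP (0.42 ± 0.099, adjusted p = 0.0072), a call lost in 5 of 15 alternatives, among them those without replicate 1 of the KO db-cAMP arrays (adjusted p = 0.0761) and replicate 1 of the WT db-cAMP arrays (adjusted p = 0.0504).

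**Figure D3:**
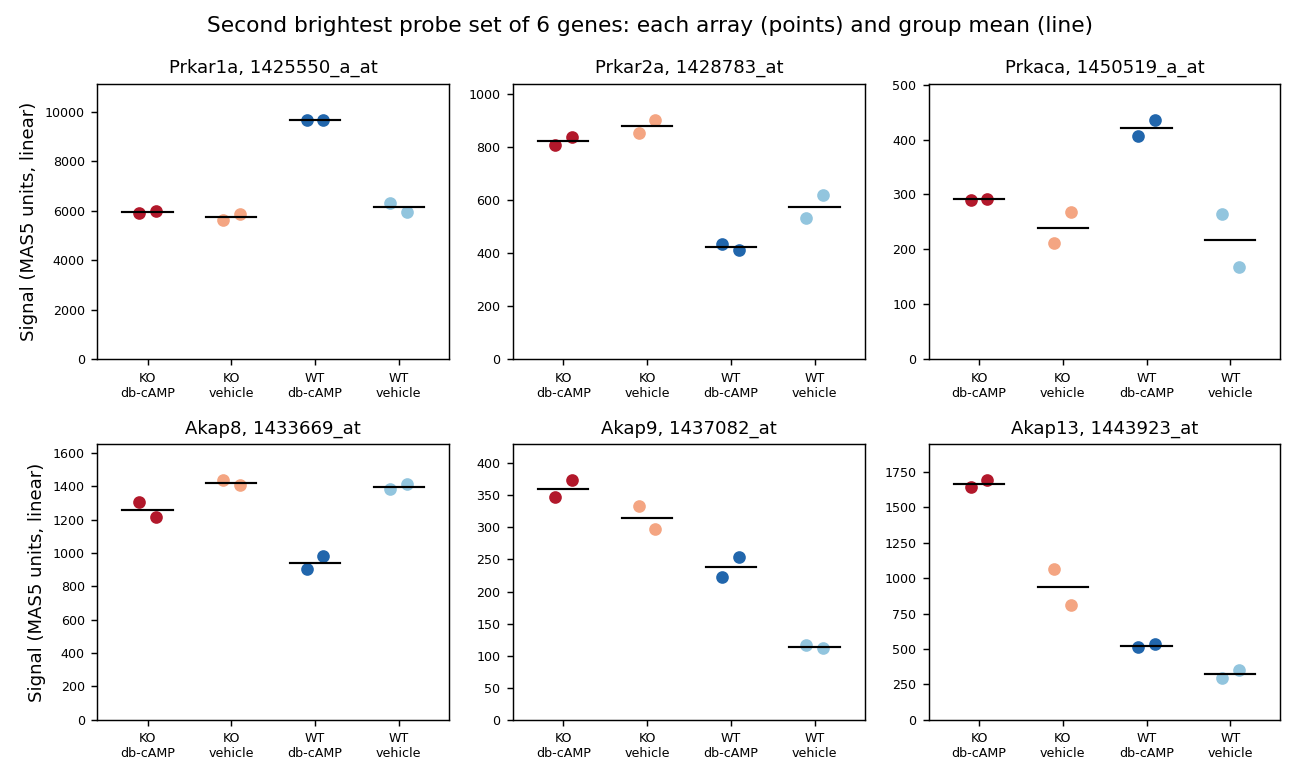
Signal of the second brightest probe set of 6 genes on each array (points) and the group mean (line), in linear MAS5 units with axes starting at 0. Prkar1a 1425550_a_at is high in the WT arrays with db-cAMP alone, and Akap13 1443923_at is highest in KO cells with db-cAMP and lowest in WT cells with vehicle.

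Akap9 encodes a large scaffold of the Golgi apparatus and centrosome. The brightest of 6 probe sets, 1435769_at, read 540 and 733.7 in KO cells with db-cAMP, against 590.2 and 425.9 with vehicle, and 587.5 and 787.5 in WT cells with db-cAMP, against 494.2 and 607 with vehicle. The groups overlapped in both genotypes, and no comparison passed. The change with db-cAMP was 0.33 ± 0.202 in KO cells (95% interval -0.11 to 0.76) and 0.31 ± 0.202 in WT cells (95% interval -0.126 to 0.745).

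The second Akap9 probe set, 1437082_at, behaved otherwise. It read 347 and 373.4 in KO cells with db-cAMP, against 333 and 297.2 with vehicle, and 223.2 and 253.1 in WT cells with db-cAMP, against 116.3 and 111.6 with vehicle. The 4 groups did not overlap at all, in the order KO with db-cAMP, KO with vehicle, WT with db-cAMP and WT with vehicle. It rose with db-cAMP in WT cells by 1.03 ± 0.199 (adjusted p = 0.00171) and gave 0.19 ± 0.199 in KO cells (adjusted p = 0.735). It was higher in KO than in WT cells under vehicle by 1.42 ± 0.199 (adjusted p = 0.000482) and under db-cAMP by 0.59 ± 0.199 (adjusted p = 0.0482), and 10 of 15 alternatives lost the value under db-cAMP, including those without any single KO array or either WT db-cAMP array (adjusted p between 0.0645 and 0.241). Its interaction did not pass (-0.83 ± 0.282, adjusted p = 0.108). The other 4 probe sets of the gene ran from 4.687 to 205.1.

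Akap13 encodes an anchor that also carries a guanine nucleotide exchange domain for RhoA. The brightest of 7 probe sets, 1433722_at, read 3705 and 4565 in KO cells with db-cAMP, against 2660 and 2619 with vehicle. In WT cells it read 3688 and 2590 with db-cAMP, against 2587 and 2316 with vehicle. The KO db-cAMP arrays stood above all others, and the lower WT db-cAMP array lay just above the upper WT vehicle array. In KO cells it rose 1.56-fold (0.64 ± 0.14, adjusted p = 0.0125). That call was lost without either KO vehicle array (adjusted p = 0.0688 and 0.107) and without replicate 2 of the KO db-cAMP arrays (0.49, adjusted p = 0.154). In WT cells the change was 0.34 ± 0.14 (adjusted p = 0.0836), and it passed without replicate 2 of the WT db-cAMP arrays (0.59, adjusted p = 0.0032) and was 0.081 (adjusted p = 0.675) without replicate 1. The interaction was 0.30 ± 0.199 (95% interval -0.126 to 0.732, adjusted p = 0.4), and without those same arrays, in that order, it was 0.049 (adjusted p = 0.904) and 0.56 (adjusted p = 0.0462). Under db-cAMP KO cells were 1.33-fold above WT cells (0.41 ± 0.14, adjusted p = 0.0418), which held in 8 of 18 alternatives. It was 0.16 (adjusted p = 0.423) without replicate 2 of the WT db-cAMP arrays, 0.26 (adjusted p = 0.329) without replicate 2 of the KO db-cAMP arrays, and missed the threshold without either KO vehicle array (adjusted p = 0.0657 and 0.0664).

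A second Akap13 probe set, 1443923_at, gave the largest genotype differences that passed among the 26 probe sets. It read 1642 and 1692 in KO cells with db-cAMP, against 1066 and 809.8 with vehicle, and 516.6 and 532.2 in WT cells with db-cAMP, against 296.4 and 350 with vehicle. No groups overlapped. The gene was higher in KO cells at this probe set by 1.66 ± 0.146 under db-cAMP (adjusted p = 3.69e-06) and by 1.51 ± 0.146 under vehicle (adjusted p = 2.16e-05), and both held in all 15 alternatives. With db-cAMP it rose by 0.84 ± 0.146 in KO cells (adjusted p = 0.00451) and by 0.69 ± 0.146 in WT cells (adjusted p = 0.00296). The KO value missed the threshold without replicate 2 of the KO db-cAMP arrays (adjusted p = 0.0629) or replicate 2 of the KO vehicle arrays (0.64, adjusted p = 0.0673). The main probe set showed no genotype difference under vehicle (0.11 ± 0.14, 95% interval -0.195 to 0.412), so the probe sets of this gene disagree there. Another one, 1440392_at, read 428.5 and 448 in KO cells with db-cAMP, against 216.1 and 78.05 with vehicle, and 121.6 and 189.4 in WT cells with db-cAMP, against 115.1 and 80.46 with vehicle. It was higher with db-cAMP in KO cells (1.71 ± 0.396, adjusted p = 0.026) and higher in KO than in WT cells under db-cAMP (1.495 ± 0.396, adjusted p = 0.014). Both were lost without either KO db-cAMP array (adjusted p between 0.0735 and 0.181). The KO change was also lost without replicate 2 of the KO vehicle arrays (1.001, adjusted p = 0.242), and the genotype difference without replicate 1 of the WT db-cAMP arrays (1.19, adjusted p = 0.0995).

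The other genes of the pathway were read from lists of further family members, proteins that bind or regulate the kinase, its substrates and other cyclic nucleotide effectors. Of 15 further subunit, inhibitor and anchor genes 10 were tested, and with db-cAMP 1 rose and 0 fell in KO cells, against 2 and 0 in WT cells (1 and 0 lower by limma at an unadjusted p under 0.05). The shares of all genes were 4.7% higher and 3.68% lower in KO cells, and 16.4% and 18.6% in WT cells. Prkx, a catalytic subunit-like kinase, rose by 0.38 ± 0.109 in KO cells (adjusted p = 0.0473, lost in 13 of 18 alternatives) and by 0.72 ± 0.109 in WT cells (adjusted p = 0.000162). Akap2, a cytoskeletal anchor, read 91 and 145.7 in KO cells with db-cAMP, against 36.09 and 68.44 with vehicle, and 413.9 and 483.6 in WT cells with db-cAMP, against 105.7 and 82.86 with vehicle. Its log2 change was 1.12 in KO cells (adjusted p = 0.083) and 2.19 ± 0.366 in WT cells (adjusted p = 0.000338), larger in size than that of any of the 9 genes above in WT cells. The median log2 change of the 10 was 0.22 in KO cells and 0.28 in WT cells.

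Of 15 genes for proteins that bind or regulate the kinase 10 were tested, with 2 higher and 1 lower in KO cells and 4 higher and 0 lower in WT cells (0 lower also by limma at an unadjusted p under 0.05), beside 4.7% and 3.68% of all genes in KO cells and 16.4% and 18.6% in WT cells. Ezr, the membrane linker ezrin that anchors the kinase near Csk in T cells, read 6111 and 6003 in KO cells with db-cAMP, against 4635 and 4554 with vehicle, and 11860 and 12630 in WT cells with db-cAMP, against 4676 and 5249 with vehicle. It rose by 0.40 ± 0.0754 in KO cells (adjusted p = 0.00469) and by 1.30 ± 0.0754 in WT cells (adjusted p = 2.03e-08), and the interaction passed (-0.91 ± 0.107, adjusted p = 0.000145). Averaging all probe sets of Ezr gave 0.43 in KO cells (adjusted p = 0.562) and 0.44 in WT cells (adjusted p = 0.347), and without replicate 1 of the KO db-cAMP arrays the KO call was lost (adjusted p = 0.0544). Acbd3, Gskip and Ppp1ca rose in WT cells by 0.55, 0.51 and 0.26. The Acbd3 call held in all 18 alternatives, and averaging all probe sets gave 0.098 for Gskip (adjusted p = 0.605). The Ppp1ca call was lost in 2 of 18, among them the fit without the intensity trend (adjusted p = 0.0691). In KO cells Pja2, a ubiquitin ligase that targets regulatory subunits, rose by 0.57 ± 0.118 (adjusted p = 0.00843), and Rab32 fell by 0.91 on the log2 scale (adjusted p = 0.0488). The Pja2 call was lost in 5 of 18 alternatives, among them those without replicate 2 of the KO vehicle arrays (adjusted p = 0.111) or either KO db-cAMP array (0.0563 and 0.0832), and the Rab32 call in 9 of 18, with adjusted p between 0.129 and 0.276 without any single KO array. The median log2 change of the 10 was 0.13 in KO cells and 0.20 in WT cells.

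Of 16 substrate genes 14 were tested, with 2 higher and 1 lower in KO cells and 6 higher and 4 lower in WT cells, beside the same 4.7% and 3.68%, and 16.4% and 18.6%, of all genes. Crem, which encodes cAMP-responsive transcription factors, rose by 2.52 ± 0.136 in KO cells (adjusted p = 1.54e-07) and by 3.98 ± 0.136 in WT cells (adjusted p = 2.6e-10). Sik1, a kinase inhibited by protein kinase A, rose by 0.90 and 1.41 in KO and WT cells, and Nfatc1, a transcription factor of T cell activation, fell by 0.54 and 1.45 on the log2 scale. The Nfatc1 call in KO cells was lost without the intensity trend (adjusted p = 0.0628) and with averaged probe sets (-0.38, adjusted p = 0.134). In WT cells Vcl rose by 0.92, and Pag1, the membrane adaptor that recruits Csk, and Ptk2b fell by 0.57 and 0.48 on the log2 scale. The log2 change of Csk itself was -0.33 ± 0.092 in WT cells (adjusted p = 0.012) and -0.17 ± 0.092 in KO cells (adjusted p = 0.348). Its WT call was lost in 3 of 18 alternatives, among them the fit without the intensity trend (adjusted p = 0.0736). The Vcl call was lost in 5 of 18 alternatives and the Ptk2b call in 4, both without replicate 2 of the WT db-cAMP arrays (adjusted p = 0.145 and 0.054) and without replicate 2 of the WT vehicle arrays (0.108 and 0.0929). The Sik1 call in KO cells was lost without either KO db-cAMP array or replicate 2 of the KO vehicle arrays (adjusted p between 0.0999 and 0.152), and averaging all probe sets lost the Pag1 call (0.10, adjusted p = 0.86). The median log2 change was 0.05 in KO cells and 0.29 in WT cells. Of 7 other cyclic nucleotide effectors 2 were tested, and neither passed in any comparison, nor reached an unadjusted p under 0.05 in limma. Arhgap36, Atf1, Ptpn7 and Rapgef4 were not analysed here.

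**Figure D4:**
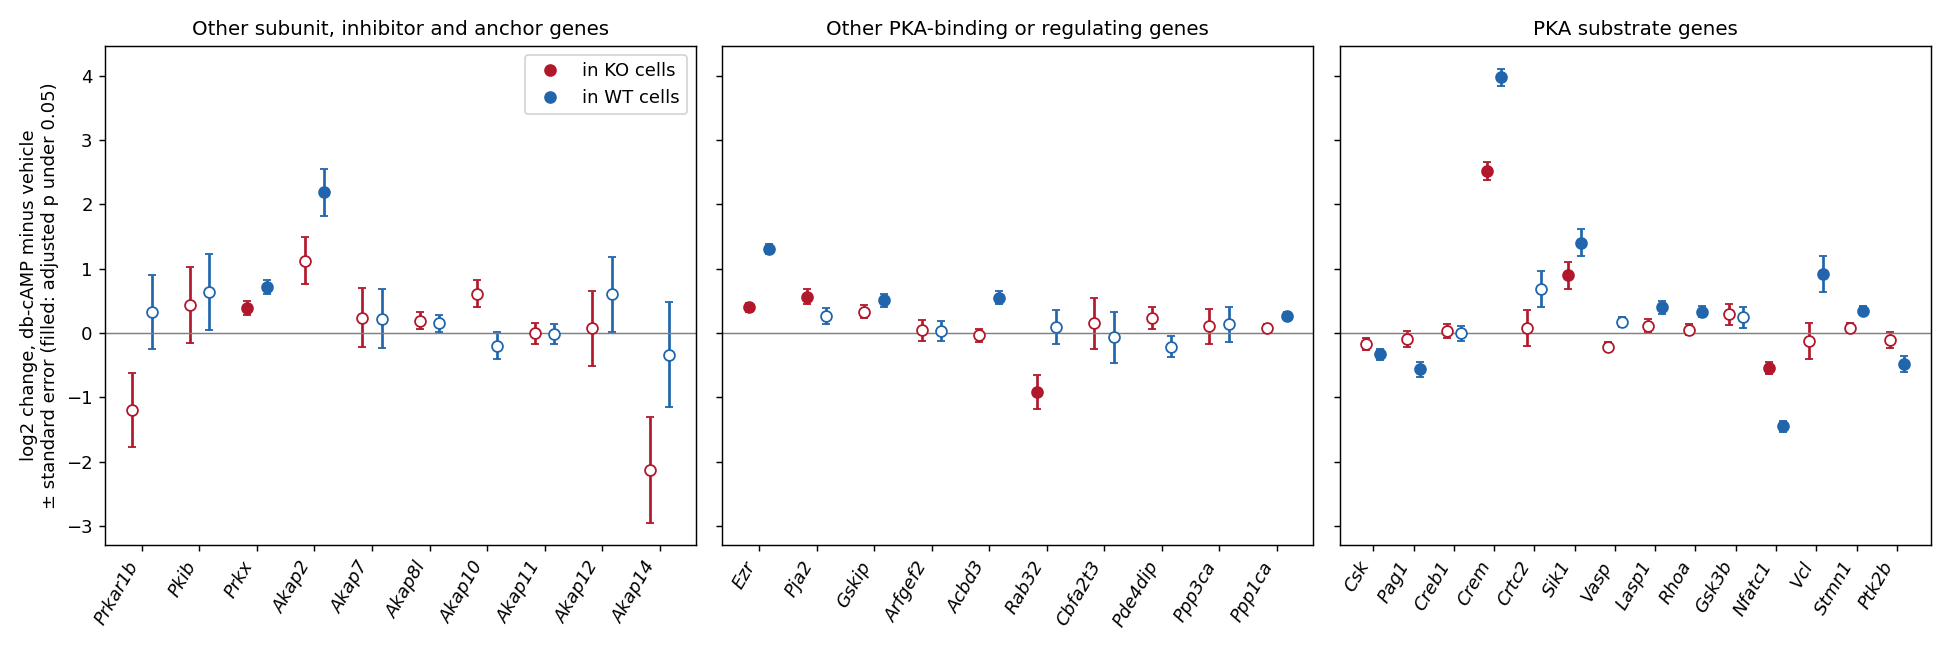
Log2 changes, db-cAMP minus vehicle, of the tested genes of 3 pathway lists in KO and WT cells, with standard errors of the fit as bars and filled points where the adjusted p was under 0.05. Crem lies highest in both genotypes, at 2.52 in KO cells and 3.98 in WT cells, and Akap2 and Ezr lead the other 2 lists in WT cells.

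Between genotypes limma gave 0 calls under vehicle among further family genes (1 lower at an unadjusted p under 0.05), 1 lower among binding proteins, and 1 higher and 2 lower among substrates, beside 5.06% higher and 5.78% lower of all genes. Under db-cAMP they gave 1 higher and 2 lower, 2 higher and 4 lower, and 5 higher and 4 lower in the same order, beside 15.9% and 13.3% of all genes. Creb1, the gene for the kinase's transcription factor substrate CREB, was higher in KO cells by 1.06 ± 0.11 under db-cAMP (adjusted p = 9.53e-06) and by 1.01 ± 0.11 under vehicle (adjusted p = 5.81e-05), and did not pass with db-cAMP in either genotype. Prkx, Akap2 and Ezr were lower in KO cells under db-cAMP by log2 changes of -0.45, -1.91 and -1.01. The interaction passed for Ezr, Acbd3, Crem and Vasp in the negative direction and for Nfatc1 in the positive one, with values between -1.46 and 0.91.

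The genes whose log2 signals correlated best over the 8 arrays with the 2 genes that changed most in WT cells are given as a description, with no p, since the arrays share their groups. For Akap1 they were Hmgxb3 (Pearson r = 0.985), Mast3 (0.97) and Champ1 (0.969). For Prkar2a they were Pik3r2 (0.981), Pag1 (0.979) and Dhrs13 (0.978), of which Pag1 is also one of the substrate genes above. Hmgxb3 read 539.8 and 735.6 in KO cells with db-cAMP, against 810.3 and 856.2 with vehicle, and 436.2 and 501.5 in WT cells with db-cAMP, against 933.7 and 647.5 with vehicle.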

How the data were processed

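Gene expression was measured in 4 groups of 2 arrays each. The submitters deposited 1 linear intensity value per probe set and array, from MAS5 per the submitters' processing notes, with no version stated. The middle 96 percent of values averaged about 499.8 on each array, so total RNA per cell is not measured. Of 45101 probe sets 34945 had 1 gene symbol, which gave 18193 genes. A gene's main probe set was its brightest by mean log2 value.

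Values were transformed as log2(value + 5.48), the 10th percentile of all values, which understates changes of dim genes. The 12091 genes that exceeded the array median on 2 or more arrays were tested. Differences were tested with limma 3.58.1 (lmFit, eBayes with an intensity trend, 1 term per group over 8 arrays, 4 residual degrees of freedom) in R 4.3.3, with Benjamini-Hochberg adjustment over all genes, and every adjusted p is limma's. A second fit took every probe set. Errors are standard errors of the fit and means carry the SD of 2 arrays. The small number of arrays limits precision. The code was tested on simulated data.

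The 10 genes and the pathway lists were chosen with earlier results of these data known. Listed genes that passed in WT cells were named, at most 6 per list by size of change, and Csk was added after its value was seen. Genes named for other comparisons, and single probe sets other than the main ones, were picked after their values were seen, as were the alternatives for those probe sets. Genes like a member were ranked by Pearson correlation. Sequences and names came from RefSeq (GRCm38.p6).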

Additional observations from a re-analysis of the deposited data

Results flagged for a closer look

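The db-cAMP effect on Prkar1a, the gene of the regulatory subunit RIα, differed between genotypes by a log2 of -0.32 ± 0.0938 in the test of the difference itself (KO effect minus WT effect, adjusted p = 0.0437). The change was 0.15 in KO cells and 0.47 in WT cells, and the direction held on both bright probe sets, with -0.60 at 1425550_a_at. The dim 1447635_at gave 0.06 ± 0.742. The call on the main probe set was lost in 13 of 17 alternatives, including most of those that leave out 1 array. With every probe set fitted it missed the threshold (adjusted p = 0.0774). The poly-A and 18S control signals were higher with db-cAMP than with vehicle in both genotypes, and their part in this difference was not tested.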

How the results depend on the processing

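Under the settings tried, 1556 of 1719 values of single genes and probe sets kept their side of the threshold. These include values called in neither fit. They also include fits without an array outside the comparison, where the log2 change cannot move. The share is therefore not that of the reported calls that held. Direction was compared only where at least 1 of the 2 fits passed. With the direction unchanged, 150 lost the call and 10 gained it, and 3 reversed. The reversed ones came from averaging all probe sets of a gene, which turned Prkacb between genotypes to -0.18 under vehicle and -0.086 under db-cAMP and Pag1 in WT cells to 0.10, and the cause was not tested. Of the 10 genes, db-cAMP called 5 in WT cells, and 3 with averaged probe sets or without the intensity trend. In KO cells it called 1, and 0 under those settings and 0 to 1 when leaving out 1 array. Between genotypes under vehicle 1 was called, 2 with a replicate block (Prkaca added, adjusted p = 0.0348), 0 with an offset of 1, without the filter, with equal 75th percentiles, averaged probe sets, every probe set, no trend or only 4 arrays, and 0 to 1 when leaving out 1 array. Under db-cAMP 4 were called, 2 without the filter or with only 4 arrays, 1 with averaged probe sets or no trend, and 1 to 5 when leaving out 1 array. The interaction called 1, and 0 without the filter, with quantile normalization, averaged probe sets, every probe set, no trend or the replicate block, and 0 to 2 when leaving out 1 array. Arrays of the same number did not deviate together over all genes (correlations of -0.0199 to 0.0206). With 1 difference between replicates per group, this cannot tell whether they shared a mouse or a day. The replicate block moved all-gene counts little, for example to 1250 under vehicle, beside 1311. Over all genes the lowest and highest counts were 188 and 1270 for db-cAMP in KO cells (1013 as reported), 2938 and 6890 in WT cells (4233), 251 and 2733 between genotypes under vehicle (1311), 2357 and 6431 under db-cAMP (3529) and 261 and 1812 for the interaction (1425). With 2 arrays a group, a group left with 1 array is assumed to vary like the others.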
